A study of Mus musculus with 3 samples.

Results

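The genes described here are 37 mouse genes of glycolysis and of the response to low oxygen, taken as a fixed list of gene symbols: glycolytic enzymes, lactate dehydrogenases, the enzymes that steer glucose flux, the hypoxia-inducible factor (HIF) subunits, their oxygen sensors and a set of hypoxia and stress response genes. Of the 37, 33 had at least 1 probe set on the array annotated with that symbol alone, out of 18193 genes named in this way. Each gene was represented by its brightest probe set, the one with the highest mean signal over the 3 arrays. The signals of Gpi1, Eno1, Pfkfb1 and Bnip3l were not analysed here. Signals at or below a floor of 75.4, the pooled median of the probe sets, were set to the floor. Pgam2, the muscle form of phosphoglycerate mutase, stayed below it on the 3 arrays, at 39.3 in ALCAM+ cells, 5.1 in Sca-1+ cells and 6.5 in marker-negative cells. That left 32 measured genes.

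The arrays came from endosteal cells, which line the inner surface of bone, of C57BL/6 mice whose age and number are not given in the sources used here. Cells freed by collagenase from femurs and tibiae and negative for CD45, CD31 and Ter119 were sorted into ALCAM+ Sca-1- cells (ALCAM+ below), ALCAM- Sca-1+ cells (Sca-1+) and ALCAM- Sca-1- cells (marker-negative). Sca-1 is carried by many progenitor cells, and ALCAM is a protein of cell adhesion. Each population was measured on 1 array, so no difference below has a replicate check or a p-value, and "higher" and "lower" in counts mean at least 2-fold apart (1 on the log2 scale).

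The sort markers and the scaling bear on every value. Alcam had 267.7 in ALCAM+ cells, 41.1 in Sca-1+ cells and 36.3 in marker-negative cells, and the genes of CD31 (Pecam1) and of 3 other endothelial markers (Cdh5, Emcn and Cldn5) were below the floor on the 3 arrays. The deposited signals share a trimmed mean of 500 on each array. The spiked-in poly-A controls did not: their geometric mean was 420.1 in ALCAM+ cells, 227.6 in Sca-1+ cells and 271.9 in marker-negative cells. Scaling on them, or on the hybridization controls, put the median log2 difference of all measured genes at -0.58 or -0.46 for ALCAM+ against marker-negative cells, at 0.20 or 0.24 for Sca-1+ against marker-negative cells and at -0.82 or -0.74 for ALCAM+ against Sca-1+ cells. A statement that a gene "held" below covers 7 alternatives: 2 other floors, 3 other scalings and 2 other choices of probe sets. Not every alternative can change a given gene: the choices of probe sets, for one, leave a gene with a single probe set as it is. With bulk RNA, fewer cells of a type and less RNA per cell cannot be told apart.

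Glycolysis splits glucose into pyruvate, which is either reduced to lactate by lactate dehydrogenase or passed to the mitochondria through pyruvate dehydrogenase. Pyruvate dehydrogenase kinases close the mitochondrial route. In low oxygen the HIF alpha subunits escape hydroxylation and breakdown, pair with Arnt and switch on many glycolytic genes. Bone cells are known for making lactate even when oxygen is present, and growth cartilage, which has no vessels, depends on HIF for survival.

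The 32 genes did not share a direction. The signal was highest in ALCAM+ cells for 13 of them (28.1% of all 12643 measured genes), in Sca-1+ cells for 8 (38.7% of all) and in marker-negative cells for 11 (33.2% of all). It was lowest in ALCAM+ cells for 8 (35.5% of all), in Sca-1+ cells for 19 (37.3% of all) and in marker-negative cells for 5 (27.2% of all). The group highest in marker-negative cells held the enzyme genes Hk1, Pfkl, Tpi1, Pgk1, Pgam1, Pkm and Ldha, with the regulators Pfkfb2, Pfkfb3 and Pdk1 and the mitophagy gene Bnip3. The group highest in ALCAM+ cells held the HIF subunit genes Hif1a and Epas1, the other pyruvate dehydrogenase kinase genes Pdk2, Pdk3 and Pdk4, and Hk2, Pfkm, Aldoc, Eno3, Ldhb, Vhl, Ddit4 and Hmox1. The group highest in Sca-1+ cells held the oxygen sensor genes Egln1 and Egln3, with Arnt, Ndrg1, Pfkp, Aldoa, Eno2 and Pfkfb4. Under the poly-A and hybridization control scalings 3 and 4 of the 32 were highest in ALCAM+ cells (5.60% and 7.22% of all genes), and 9 and 11 were lowest in Sca-1+ cells (13.8% and 15.0% of all).

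**Figure D1:**
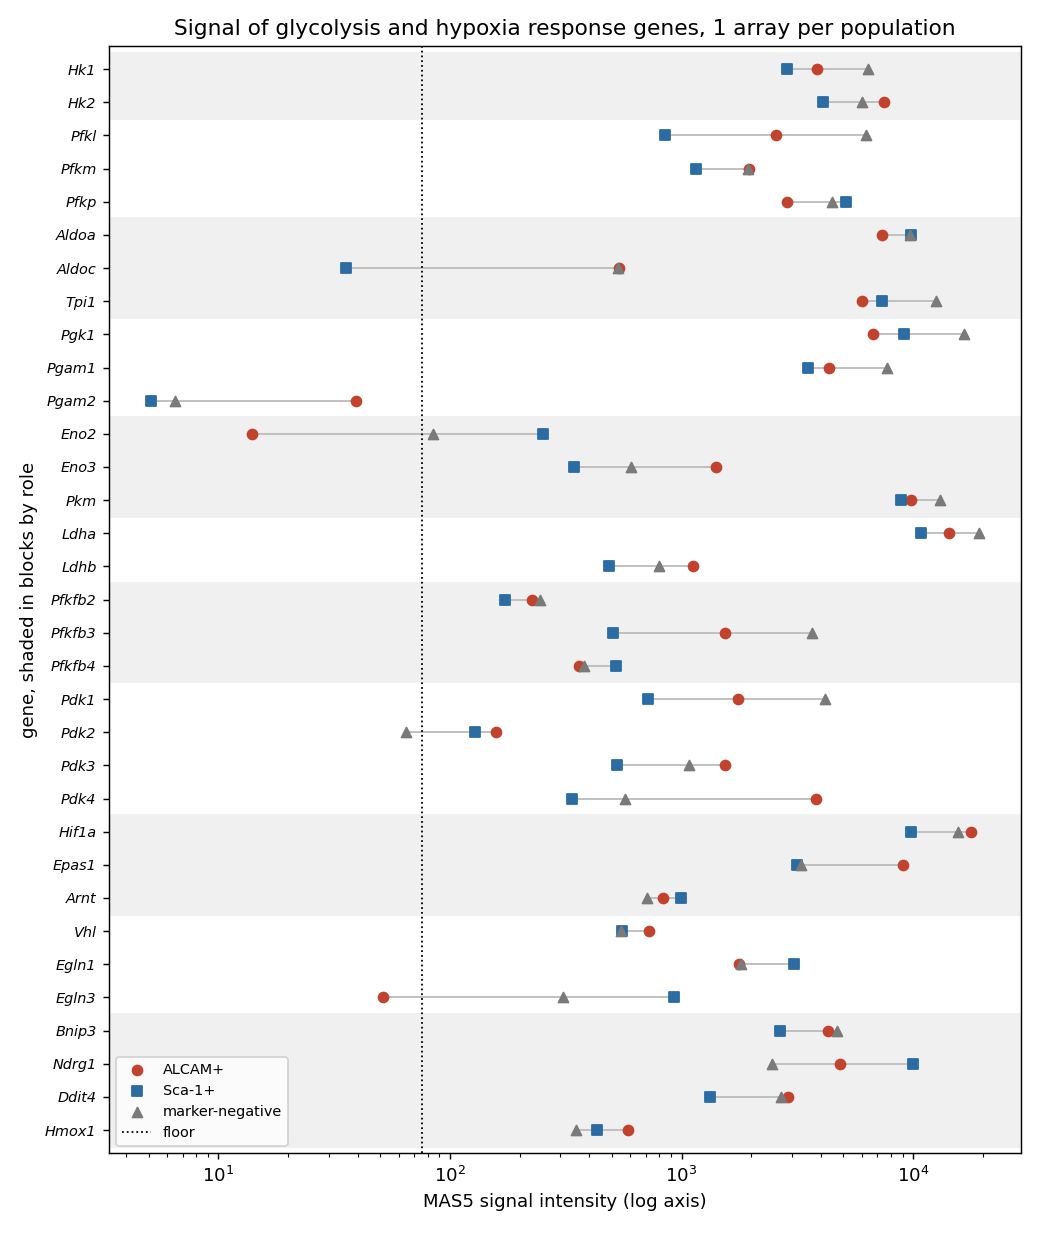
MAS5 signal (log axis) of the 33 genes found, 1 row per gene in blocks by role, with a point for each of the 3 populations and the floor of 75.4 as a dotted line. Points lie far apart for Egln3, Eno2, Aldoc and Pdk4, and for Pgam2 with all its points below the floor, and close together for Vhl and Aldoa.

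Counted by comparison, ALCAM+ against marker-negative cells gave 4 genes at least 2-fold higher (6.68% of all measured genes) and 6 lower (10.6%), and the median difference (log2) was -0.05, against -0.03 for all measured genes. Sca-1+ against marker-negative cells gave 3 higher (15.0% of all) and 8 lower (12.7%), with a median of -0.70 against 0 for all. ALCAM+ against Sca-1+ cells, the difference of the other comparisons and no independent measurement, gave 10 higher (11.2% of all) and 3 lower (15.8%), with a median of 0.42 against -0.01. Under the poly-A control scaling the counts were 1 higher and 12 lower for ALCAM+ against marker-negative cells and 5 higher and 4 lower for Sca-1+ against marker-negative cells. For ALCAM+ against Sca-1+ cells they turned to 3 higher and 10 lower under either control scaling. In that comparison the median turned to -0.47 or -0.38 under the poly-A or hybridization control scaling, where it still lay 0.35 or 0.37 above the median of all genes. The control scalings shifted all genes, with poly-A medians of -0.58, 0.20 and -0.82 in the order of comparisons above. The shares of all genes at least 2-fold apart under them are not given here, so these counts show nothing particular to the 32 genes. At least 4-fold apart were 1 gene higher (2.01% of all) and 1 lower (2.67%) in ALCAM+ against marker-negative cells, 1 higher (5.46%) and 4 lower (4.71%) in Sca-1+ against marker-negative cells, and 3 higher (3.99%) and 1 lower (5.86%) in ALCAM+ against Sca-1+ cells. Nearest the 2-fold limit, Ddit4 (2.03-fold lower in Sca-1+ against marker-negative cells) lay just inside and Ndrg1 (1.96-fold higher in ALCAM+ against marker-negative cells) just outside. In all, 18 of the 32 were at least 2-fold apart between some pair of arrays (40.0% of all measured genes).

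**Figure D2:**
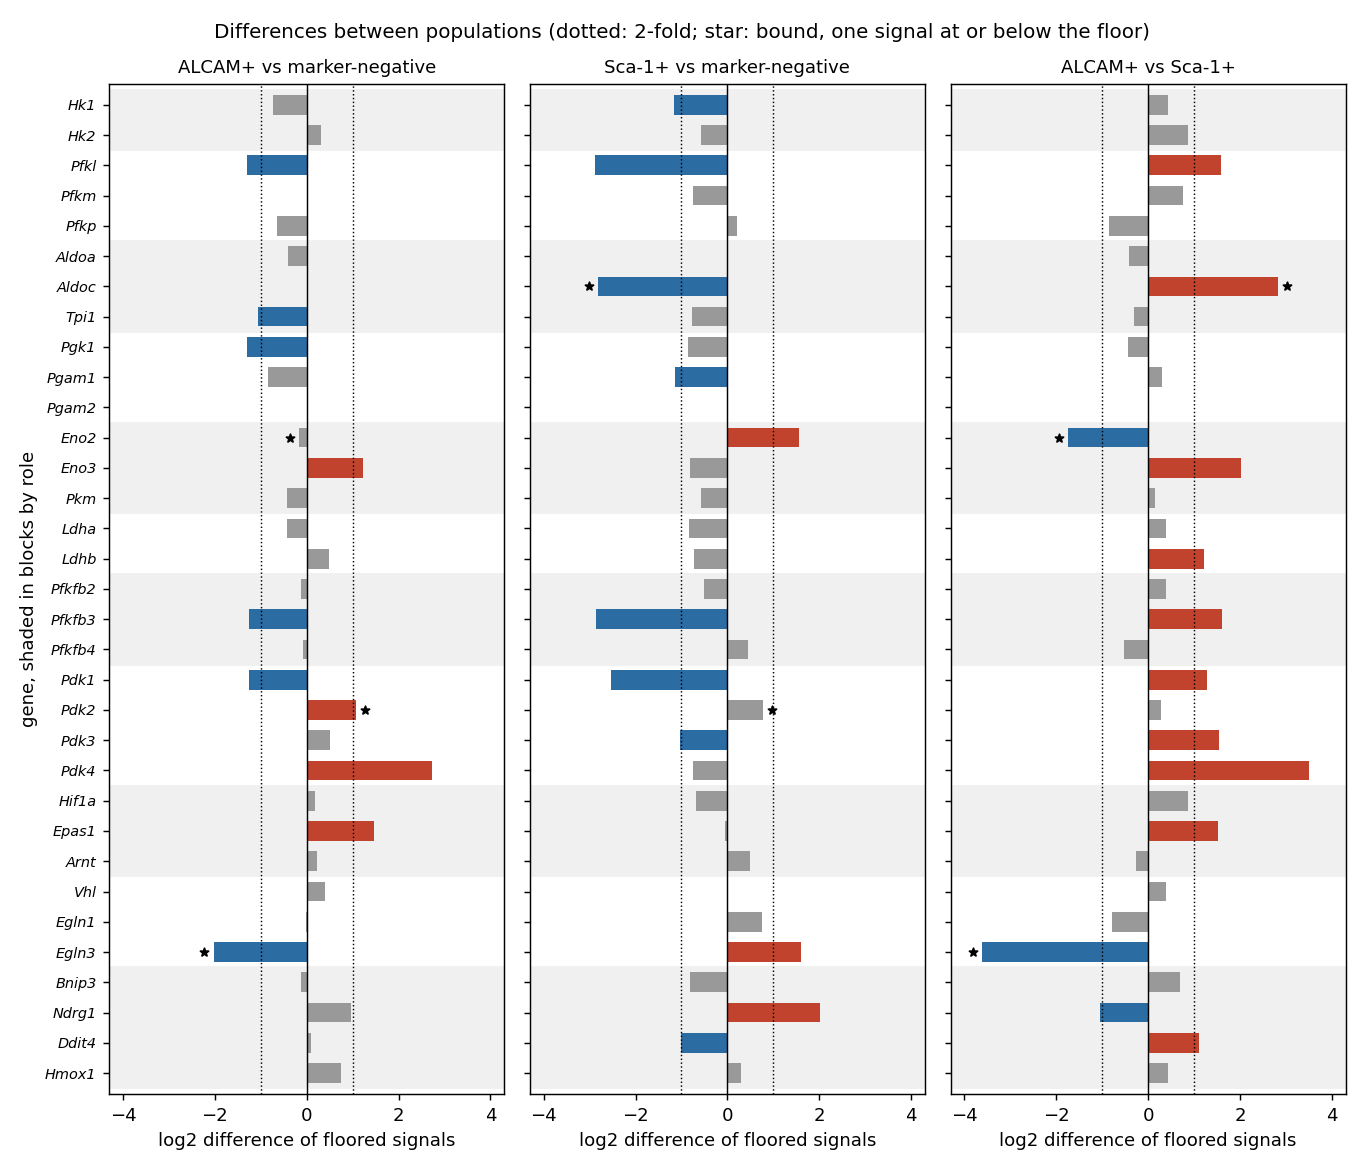
Log2 difference of floored signals in the 3 comparisons, 1 bar per gene, red for at least 2-fold higher in the first-named population and blue for at least 2-fold lower. Dotted lines mark 2-fold and stars mark bounds. In Sca-1+ against marker-negative cells the longest blue bars are Pfkl, Pfkfb3, Aldoc and Pdk1, and in ALCAM+ against Sca-1+ cells the longest bars are Egln3 (-3.62) and Pdk4 (3.49).

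Pfkl, Pfkfb3 and Pdk1 had the same order in the 3 populations. Pfkl, the liver form of phosphofructokinase, the committed step of glycolysis, had a signal of 2555 in ALCAM+ cells, 849.3 in Sca-1+ cells and 6244 in marker-negative cells. Pfkfb3, which makes the allosteric activator of that enzyme, had 1537 in ALCAM+ cells, 503.8 in Sca-1+ cells and 3667 in marker-negative cells. Pdk1, the HIF-induced kinase that shuts pyruvate out of the mitochondria, had 1746 in ALCAM+ cells, 718.0 in Sca-1+ cells and 4143 in marker-negative cells. Each was thus highest in marker-negative and lowest in Sca-1+ cells. Against marker-negative cells they were 7.35-fold (Pfkl), 7.28-fold (Pfkfb3) and 5.77-fold (Pdk1) lower in Sca-1+ cells, and this held under the 7 alternatives. In ALCAM+ cells they were 2.44-fold, 2.39-fold and 2.37-fold lower than in marker-negative cells, which held under 6 of 7 and dropped below 2-fold on averaging the probe sets of each gene (log2 -0.82, -0.86 and -0.75). In ALCAM+ against Sca-1+ cells they were 3.01-fold, 3.05-fold and 2.43-fold higher, which fell short of 2-fold under the poly-A control scaling (0.71, 0.73 and 0.40) and the hybridization control scaling (0.80, 0.82 and 0.49). With the probe sets averaged Pfkl (0.64) and Pfkfb3 (0.89) fell short there too.

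Other probe sets bear on these genes. The second probe set of Pfkl gave log2 differences of -0.94 for ALCAM+ and -2.53 for Sca-1+ against marker-negative cells, near those of the brightest. Another, dim Pfkl probe set went the other way, with 93.1 in ALCAM+ cells, 224.0 in Sca-1+ cells and 108.5 in marker-negative cells. The other probe sets of Pdk1 above the floor gave -2.27 and -2.51 for Sca-1+ against marker-negative cells. The second probe set of Pfkfb3 was dim, with 98.1 in ALCAM+ cells, 87.0 in Sca-1+ cells and 136.4 in marker-negative cells.

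The HIF complex binds the core letters ACGTG or GCGTG in DNA, so the promoters of genes that stood apart in different directions were read for them. RefSeq promoters (GRCm38.p6, 250 bases before to 50 after the start) were found for 33 of the 37 genes, with 52 starts. These are not the same 33 as those with a probe set: Gpi1, Eno1 and Pfkfb1 are included, and Epas1, Hmox1 and Ndrg1 are not. ACGTG or GCGTG occurred on either strand, overlapping matches counted once, in 38 of the 52 (73.1%), against 43.8% of all 32851 promoters in the table. The 52 also held more CG dinucleotides, 16.9 per promoter against 12.4 over all, and both motifs contain CG. The genes were listed for glycolysis and hypoxia response, so the share describes the list and is no result of these arrays. Some starts of a gene lie close together and count the same sites again. The promoters printed are those of 4 genes highest in marker-negative cells (Pfkl, Pfkfb3, Pdk1 and Pgk1), of Egln3, highest in Sca-1+ cells, and of Pdk4, highest in ALCAM+ cells. They run from 5′ to 3′ on the gene's strand with the motif in capitals, and for a gene with several starts the one with most matches was taken.
Pfkl, chr10:78009758-78010057, minus strand: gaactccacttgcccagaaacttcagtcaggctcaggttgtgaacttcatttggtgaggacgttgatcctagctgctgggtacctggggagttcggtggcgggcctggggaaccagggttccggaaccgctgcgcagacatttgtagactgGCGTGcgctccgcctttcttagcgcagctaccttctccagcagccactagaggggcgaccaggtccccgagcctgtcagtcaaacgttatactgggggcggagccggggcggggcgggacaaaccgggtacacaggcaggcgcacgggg
Pfkfb3, chr2:11502041-11502340, minus strand: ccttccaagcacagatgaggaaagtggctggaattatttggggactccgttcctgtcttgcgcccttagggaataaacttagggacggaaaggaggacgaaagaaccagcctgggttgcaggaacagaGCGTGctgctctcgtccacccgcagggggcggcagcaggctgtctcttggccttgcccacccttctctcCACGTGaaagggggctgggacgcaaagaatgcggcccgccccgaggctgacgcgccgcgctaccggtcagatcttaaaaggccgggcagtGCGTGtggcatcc
Pdk1, chr2:71872974-71873273, plus strand: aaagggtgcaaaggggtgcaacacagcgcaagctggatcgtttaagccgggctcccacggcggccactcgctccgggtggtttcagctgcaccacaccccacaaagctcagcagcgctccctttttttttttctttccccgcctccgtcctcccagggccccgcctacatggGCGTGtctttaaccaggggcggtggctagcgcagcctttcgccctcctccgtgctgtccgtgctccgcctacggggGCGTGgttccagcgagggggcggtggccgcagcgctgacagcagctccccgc
Pgk1, chrX:106186850-106187149, plus strand: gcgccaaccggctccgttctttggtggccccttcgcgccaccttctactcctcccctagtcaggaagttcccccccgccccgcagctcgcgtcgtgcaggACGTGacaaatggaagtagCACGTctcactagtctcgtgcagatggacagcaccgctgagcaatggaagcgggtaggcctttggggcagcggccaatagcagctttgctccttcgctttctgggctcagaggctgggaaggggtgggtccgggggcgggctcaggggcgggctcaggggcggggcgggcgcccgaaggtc
Egln3, chr12:54203825-54204124, minus strand: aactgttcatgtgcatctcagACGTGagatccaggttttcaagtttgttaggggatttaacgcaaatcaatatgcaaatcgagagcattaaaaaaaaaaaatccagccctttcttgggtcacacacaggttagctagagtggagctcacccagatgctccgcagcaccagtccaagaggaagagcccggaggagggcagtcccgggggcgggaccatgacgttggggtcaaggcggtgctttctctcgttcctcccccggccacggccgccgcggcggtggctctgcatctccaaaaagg
Pdk4, chr6:5496229-5496528, minus strand: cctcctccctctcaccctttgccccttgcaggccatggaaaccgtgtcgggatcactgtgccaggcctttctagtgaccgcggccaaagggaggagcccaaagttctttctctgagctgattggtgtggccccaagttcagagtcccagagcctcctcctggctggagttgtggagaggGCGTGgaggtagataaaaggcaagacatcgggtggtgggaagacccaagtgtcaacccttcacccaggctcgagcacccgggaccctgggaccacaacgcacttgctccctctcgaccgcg
Each of these 6 picked genes held the motif at the start with most matches: 1 site in Pfkl, Egln3 and Pdk4, 2 in Pdk1 and Pgk1 and 3 in Pfkfb3. The other start of Pdk1 had 0 matches. The motif was not general in any group: Tpi1 (highest in marker-negative cells), Vhl (highest in ALCAM+ cells) and Eno2 (highest in Sca-1+ cells) had 0 matches. Matching letters are not evidence of binding in these cells.

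The hexokinases phosphorylate glucose on entry. Hk1, the broadly expressed form, had 3845 in ALCAM+ cells, 2854 in Sca-1+ cells and 6405 in marker-negative cells, 2.24-fold lower in Sca-1+ cells than in marker-negative cells. Hk2, the insulin- and HIF-responsive form, had 7482 in ALCAM+ cells, 4079 in Sca-1+ cells and 6037 in marker-negative cells, within 2-fold in each comparison. The hexokinase genes thus had their highest signals in different populations, though Hk2 turned to the marker-negative side under the poly-A and hybridization control scalings (log2 -0.32 and -0.19 for ALCAM+ against marker-negative cells). The Hk1 call was lost there too, at -0.91 and -0.87 for Sca-1+ against marker-negative cells.

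The other phosphofructokinase genes did not follow Pfkl. Pfkm, the muscle form, had 1951 in ALCAM+ cells, 1150 in Sca-1+ cells and 1943 in marker-negative cells. Pfkp, the platelet form, had 2840 in ALCAM+ cells, 5138 in Sca-1+ cells and 4467 in marker-negative cells. By the brightest probe sets neither differed 2-fold in any comparison, so Pfkl alone of the 3 isoform genes did. A dim Pfkp probe set, with 125.3 in ALCAM+ cells, 64.1 in Sca-1+ cells and 166.3 in marker-negative cells, went the other way in Sca-1+ against marker-negative cells (log2 -1.14, a bound). Another, above the floor in Sca-1+ cells only (112.3), had the direction of the brightest there.

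Next in the pathway, aldolase cleaves the hexose. Aldoc, the brain form, had 537.2 in ALCAM+ cells, 35.6 in Sca-1+ cells and 532.2 in marker-negative cells: at least 7.12-fold higher in ALCAM+ cells than in Sca-1+ cells and at least 7.06-fold lower in Sca-1+ cells than in marker-negative cells. Its other probe set was near or below the floor, with 80.3 in ALCAM+ cells, 4.0 in Sca-1+ cells and 94.6 in marker-negative cells. With a floor raised to the 75th percentile the differences shrank to 0.31 and -0.29. Aldoa, the main aldolase, had 7345 in ALCAM+ cells, 9809 in Sca-1+ cells and 9684 in marker-negative cells. Of its 5 probe sets 4 gave the ALCAM+ array the lowest signal, whereas the fifth gave 5312 in ALCAM+ cells, 1391 in Sca-1+ cells and 2060 in marker-negative cells.

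The enzymes of the middle of the pathway were highest in marker-negative cells. Tpi1, triose phosphate isomerase, had 5986 in ALCAM+ cells, 7348 in Sca-1+ cells and 12544 in marker-negative cells. Pgk1, phosphoglycerate kinase, the first ATP-yielding step, had 6695 in ALCAM+ cells, 9091 in Sca-1+ cells and 16514 in marker-negative cells. Pgam1, phosphoglycerate mutase, had 4311 in ALCAM+ cells, 3504 in Sca-1+ cells and 7739 in marker-negative cells. Tpi1 and Pgk1 were lower in ALCAM+ cells than in marker-negative cells (2.10-fold and 2.47-fold), and Pgam1 in Sca-1+ cells (2.21-fold). The remaining differences of these genes from marker-negative cells, by the brightest probe sets, pointed the same way and were between 1.71-fold and 1.82-fold. The other probe sets of Pgk1 passed 2-fold for Sca-1+ against marker-negative cells (log2 -1.02 and -2.73). For ALCAM+ against Sca-1+ cells they gave 0.12 and 1.11, opposite in sign to the brightest (-0.44). Without probe sets marked _x_at, some of whose probes can bind other transcripts, the ALCAM+ difference of Tpi1 was -0.92 (-0.88 with all its probe sets averaged) and that of Pgk1 -0.90, and the Pgam1 difference was -0.89 and -0.85 under the poly-A and hybridization control scalings.

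The enolase genes had opposite orders. Eno3, the muscle form, had 1403 in ALCAM+ cells, 344.9 in Sca-1+ cells and 602.9 in marker-negative cells, 4.07-fold higher in ALCAM+ cells than in Sca-1+ cells and 2.33-fold higher than in marker-negative cells. Eno2, the neuronal form and a HIF target, had 14.0 in ALCAM+ cells, 251.9 in Sca-1+ cells and 84.9 in marker-negative cells, 2.97-fold higher in Sca-1+ cells than in marker-negative cells and at least 3.34-fold lower in ALCAM+ cells than in Sca-1+ cells. Both genes have a single probe set. The contrast with Sca-1+ cells held for both under the alternatives that gave a value, while the difference of Eno3 from marker-negative cells was 0.59 and 0.72 under the poly-A and hybridization control scalings. The summed signal of 9 skeletal muscle markers, which like Eno3 was lowest in Sca-1+ cells, was 3143 in ALCAM+ cells, 461.5 in Sca-1+ cells and 3672 in marker-negative cells, and Ckm, Myh1 and Myh4 were at or below the floor on the 3 arrays. Tnni2 carried most of that sum, with 2175 in ALCAM+ cells, 57.8 in Sca-1+ cells and 2288 in marker-negative cells. The part of muscle RNA in the Eno3 result was not tested.

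At the last steps of the pathway Ldhb passed 2-fold, and Pkm and Ldha did not. Pkm, pyruvate kinase, had 9802 in ALCAM+ cells, 8858 in Sca-1+ cells and 13098 in marker-negative cells. Ldha, the HIF-induced subunit that turns pyruvate to lactate, had 14287 in ALCAM+ cells, 10822 in Sca-1+ cells and 19265 in marker-negative cells. Both had their highest signal in marker-negative cells. Ldhb, the subunit that favours the reverse reaction, had 1121 in ALCAM+ cells, 484.5 in Sca-1+ cells and 797.5 in marker-negative cells, 2.31-fold higher in ALCAM+ cells than in Sca-1+ cells. Its 4 probe sets shared that order of the populations, and under the poly-A and hybridization control scalings the difference was 0.33 and 0.42.

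Over the 15 measured enzymes and lactate dehydrogenases the median log2 difference was -0.42 for ALCAM+ and -0.77 for Sca-1+ against marker-negative cells. In the ALCAM+ comparison 10 of the 15 were below 0, against 6585 of all 12643 measured genes, and in the Sca-1+ comparison 12 were, against 6261 of all. Markers of red cell precursors and of cell division were also highest in marker-negative cells. The summed signal of the 8 red cell markers found was 400 in ALCAM+ cells, 304.9 in Sca-1+ cells and 17829 in marker-negative cells, where 8 of 8 lay above the floor, against 2 in ALCAM+ and 1 in Sca-1+ cells. The summed signal of 7 cell division markers was 1127 in ALCAM+ cells, 1065 in Sca-1+ cells and 22178 in marker-negative cells. Cartilage markers separated Sca-1+ cells instead, with sums over 12 genes of 290666 in ALCAM+ cells, 31222 in Sca-1+ cells and 271337 in marker-negative cells. Of the 12, 11 were at least 4-fold lower in Sca-1+ cells than in marker-negative cells. The exception, Comp, carried most of the Sca-1+ sum, with 36933 in ALCAM+ cells, 25933 in Sca-1+ cells and 30884 in marker-negative cells. The part of red cell precursors, dividing cells and cartilage cells in the enzyme differences was not tested.

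Among the genes that set the flux, Pfkfb2 and Pfkfb4, which encode other forms of the enzyme made by Pfkfb3, did not share its pattern. Pfkfb2 had 225.8 in ALCAM+ cells, 172.6 in Sca-1+ cells and 244.3 in marker-negative cells. Pfkfb4 had 359.3 in ALCAM+ cells, 520.1 in Sca-1+ cells and 379.2 in marker-negative cells. Neither differed 2-fold between any pair of populations.

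The 4 pyruvate dehydrogenase kinase genes split between populations. Pdk4, the form induced in fasting and by lipid fuels, had 3801 in ALCAM+ cells, 337.2 in Sca-1+ cells and 570.7 in marker-negative cells. It was 11.3-fold higher in ALCAM+ cells than in Sca-1+ cells and 6.66-fold higher than in marker-negative cells, and it was the only one of the 32 genes at least 4-fold higher in ALCAM+ cells than in marker-negative cells. Both differences of Pdk4 held under the 7 alternatives, with lowest values of 2.61 and 2.11. Pdk4 has a single probe set, so the 2 other choices of probe sets could not change them. Against marker-negative cells the 2 other floors left the value unchanged too. Pdk3 had 1536 in ALCAM+ cells, 528.0 in Sca-1+ cells and 1079 in marker-negative cells, 2.91-fold higher in ALCAM+ cells than in Sca-1+ cells and 2.04-fold lower in Sca-1+ cells than in marker-negative cells. Pdk2 was dim, with 157.8 in ALCAM+ cells, 128.9 in Sca-1+ cells and 64.7 in marker-negative cells, at least 2.09-fold higher in ALCAM+ cells than in marker-negative cells. Pdk1 had the reverse order of Pdk4 between ALCAM+ and marker-negative cells, while all 4 kinase genes had a higher signal in ALCAM+ cells than in Sca-1+ cells, apart from Pdk2 under the poly-A and hybridization control scalings (-0.59 and -0.50). Under these scalings the Pdk3 differences fell below 2-fold (0.66 and 0.75 for ALCAM+ against Sca-1+ cells, -0.77 and -0.73 for Sca-1+ against marker-negative cells), as did that of Pdk2 (0.55 and 0.63).

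The HIF alpha subunits carry the oxygen-dependent signal. Epas1, which encodes HIF-2 alpha, had 8997 in ALCAM+ cells, 3144 in Sca-1+ cells and 3269 in marker-negative cells, 2.86-fold higher in ALCAM+ cells than in Sca-1+ cells and 2.75-fold higher than in marker-negative cells. Its second probe set had 523.5 in ALCAM+ cells, 61.7 in Sca-1+ cells and 121.2 in marker-negative cells, in the same direction. Epas1 is also an endothelial gene. The 7 endothelial markers summed to 304.2 in ALCAM+ cells, 881.0 in Sca-1+ cells and 368.1 in marker-negative cells, and 5 of 7 were at or below the floor in ALCAM+ cells. The Sca-1+ sum was mostly Tek, with 28.8 in ALCAM+ cells, 630.6 in Sca-1+ cells and 18.8 in marker-negative cells. The part of endothelial RNA in the Epas1 result was not tested. Hif1a had 17864 in ALCAM+ cells, 9789 in Sca-1+ cells and 15669 in marker-negative cells, within 2-fold, and its second probe set, with the highest signal in marker-negative cells, had 3102 in ALCAM+ cells, 1951 in Sca-1+ cells and 4000.3 in marker-negative cells. Arnt, the common partner, had 828.9 in ALCAM+ cells, 996.8 in Sca-1+ cells and 711.9 in marker-negative cells. Of the 3 subunit genes Epas1 was thus the one that passed 2-fold, and it fell short under the poly-A and hybridization control scalings (0.63 and 0.72 against Sca-1+ cells, 0.83 and 0.97 against marker-negative cells).

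The prolyl hydroxylases mark the alpha subunits for breakdown by the Vhl protein, and Egln3 is itself a HIF target. Egln3 had 51.5 in ALCAM+ cells, 927.8 in Sca-1+ cells and 307.1 in marker-negative cells. In ALCAM+ cells it was at least 12.3-fold lower than in Sca-1+ cells, at least 4.07-fold lower than in marker-negative cells. Egln3 was also 3.02-fold higher in Sca-1+ cells than in marker-negative cells. Its dimmer probe set had 32.7 in ALCAM+ cells, 150.8 in Sca-1+ cells and 76.1 in marker-negative cells, the same order. The difference of ALCAM+ from marker-negative cells vanished with a floor raised to the 75th percentile, which lay above both signals. Egln1, the main oxygen sensor, had 1770 in ALCAM+ cells, 3055 in Sca-1+ cells and 1799 in marker-negative cells, and Vhl had 725.2 in ALCAM+ cells, 552.6 in Sca-1+ cells and 546.0 in marker-negative cells, both within 2-fold. Epas1 and Egln3 therefore had opposite orders between ALCAM+ and Sca-1+ cells.

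Hypoxia and stress response genes went separate ways. Ndrg1, a stress-induced gene and HIF target, had 4842 in ALCAM+ cells, 9966 in Sca-1+ cells and 2467 in marker-negative cells, 4.04-fold higher in Sca-1+ cells than in marker-negative cells and 2.06-fold lower in ALCAM+ cells than in Sca-1+ cells (log2 -0.98 without probe sets marked _x_at). Its 5 probe sets gave log2 differences from 1.74 to 2.59 for Sca-1+ against marker-negative cells. Ddit4, an inhibitor of mTOR signalling induced by hypoxia and glucocorticoids, had 2870 in ALCAM+ cells, 1322 in Sca-1+ cells and 2679 in marker-negative cells, 2.17-fold higher in ALCAM+ cells than in Sca-1+ cells and 2.03-fold lower in Sca-1+ cells than in marker-negative cells. The Ddit4 differences were 0.23 and 0.33 (ALCAM+ against Sca-1+) and -0.76 and -0.72 (Sca-1+ against marker-negative) under the poly-A and hybridization control scalings. Bnip3, a HIF target that triggers mitophagy, had 4295 in ALCAM+ cells, 2659 in Sca-1+ cells and 4701 in marker-negative cells. Hmox1, heme oxygenase, had 586.4 in ALCAM+ cells, 431.9 in Sca-1+ cells and 349.8 in marker-negative cells. Neither reached 2-fold.

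Some markers of other cell types were also highest in Sca-1+ cells. Fibroblast progenitor markers summed to 5672 in ALCAM+ cells, 95982 in Sca-1+ cells and 2497 in marker-negative cells over 8 genes, and neutrophil markers to 383.2 in ALCAM+ cells, 14476 in Sca-1+ cells and 2952 in marker-negative cells over 7. Pdgfra carried most of the fibroblast progenitor sum in ALCAM+ cells, with 5122 there, 11647 in Sca-1+ cells and 671.5 in marker-negative cells. In ALCAM+ against marker-negative cells 1 gene of that list was higher by floored signal and 4 were lower, at any size of difference. Within the neutrophil list Mpo went the other way, with 25.2 in ALCAM+ cells, 91.4 in Sca-1+ cells and 1355 in marker-negative cells, and so did Elane, with 37.3 in ALCAM+ cells, 63.5 in Sca-1+ cells and 483.0 in marker-negative cells. Osteoblast and osteocyte markers, over 8 genes, summed to 174577 in ALCAM+ cells, 11367 in Sca-1+ cells and 69190 in marker-negative cells. Within that list Phex was lowest in marker-negative cells, at 1165 against 1376 in Sca-1+ cells. Pdk4 and Eno3 had the order of the sum, and so did Hk2, Pfkm, Aldoc, Ldhb, Pdk3, Hif1a, Epas1 and Ddit4. Markers of macrophages and other CD45+ cells, over 7 genes, summed to 1033 in ALCAM+ cells, 1059.8 in Sca-1+ cells and 1023 in marker-negative cells, with Cd14 the largest term. Ptprc, the gene of CD45, had 11.6 in ALCAM+ cells, 163.2 in Sca-1+ cells and 159.4 in marker-negative cells. The part of these lists in the results was not tested.

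**Figure D3:**
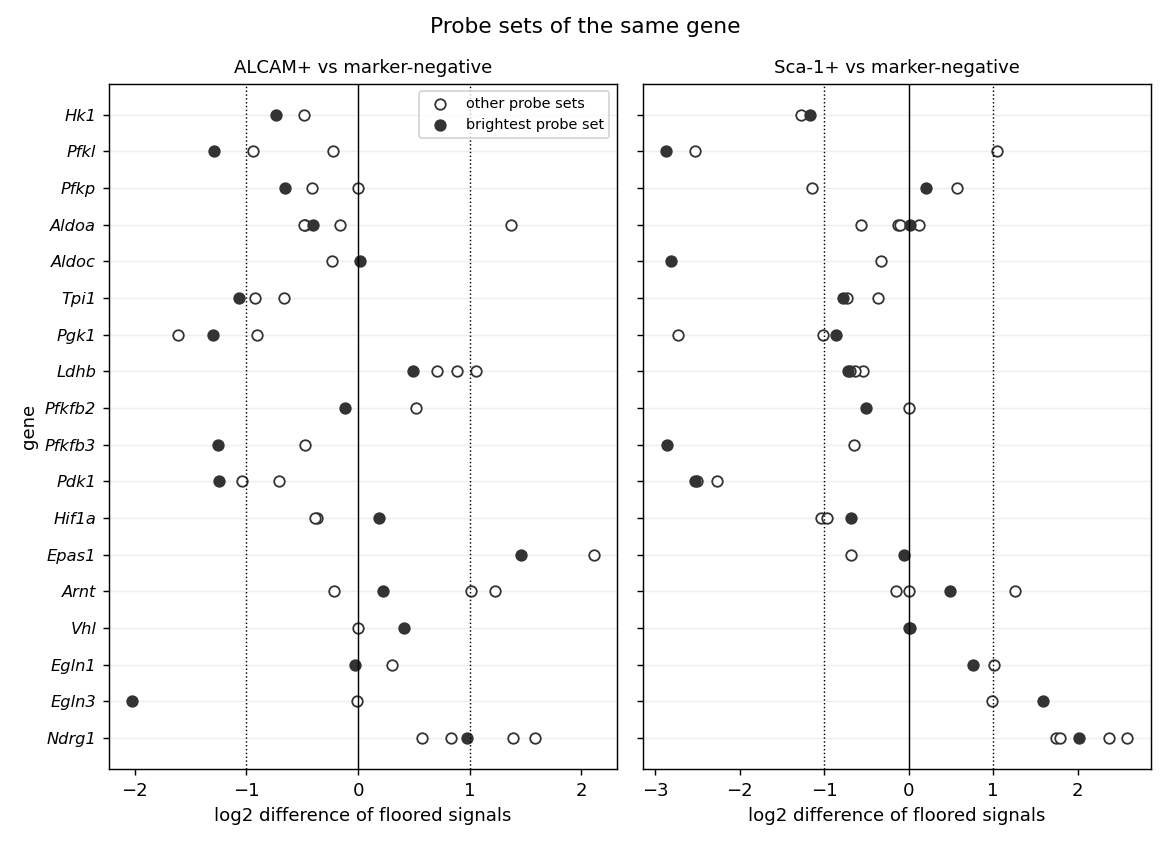
Log2 difference of each probe set above the floor on at least 1 array, for the 18 genes with several such probe sets, with the brightest filled and the others open. The panels show ALCAM+ and Sca-1+ cells against marker-negative cells. The probe sets of Hk1, Tpi1, Pdk1, Ldhb and Ndrg1 stay on the same side of 0 in each panel, whereas Pfkl (Sca-1+), Aldoa (ALCAM+) and Arnt (ALCAM+) have probe sets on both sides.

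Disagreement between probe sets of a gene gives a measure of technical spread, though not of variation from sort to sort or mouse to mouse. Over 4152 genes with several probe sets above the floor on every array, the difference between the brightest and the next had an SD (log2) of 0.54 for ALCAM+ against marker-negative cells, 0.67 for Sca-1+ against marker-negative cells and 0.75 for ALCAM+ against Sca-1+ cells. For 6.62%, 12.7% and 15.7% of these genes the probe sets were at least 2-fold apart in these comparisons. Differences near 2-fold, such as those of Tpi1, Pgam1, Pdk3 and Ddit4, are therefore of a size at which probe sets of the same gene can disagree, and so are larger ones of some genes: for Sca-1+ against marker-negative cells the probe sets of Pfkl ranged from -2.88 to 1.05 and those of Pfkfb3 from -2.86 to -0.65. The 3 Pdk1 probe sets above the floor lay between -2.53 and -2.27 in that comparison. Of the genes at least 2-fold apart that had another probe set above the floor, the others had the same sign for 7 of 7 genes in ALCAM+ and 6 of 7 in Sca-1+ against marker-negative cells and for 7 of 8 in ALCAM+ against Sca-1+ cells, with Pfkl as the exception. The sign can be slight: in ALCAM+ against marker-negative cells the other Egln3 probe set gave only -0.01. Its ALCAM+ signal of 32.7 was set to the floor, and its marker-negative signal of 76.1 lay just above.

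Genes around the pathway were counted from lists chosen, like the genes above, with earlier results of these data known. Their differences are given for the deposited scaling only and were not checked under the alternatives. Those near 2-fold may fall short under the poly-A and hybridization control scalings, as several did above. Of 8 glucose and lactate transport genes, 0 were higher and 3 lower in ALCAM+ cells than in marker-negative cells (6.68% and 10.6% of all genes). In Sca-1+ against marker-negative cells 0 were higher and 1 lower (15.0% and 12.7% of all). Slc2a1, the basal glucose transporter and a HIF target, had 7678 in ALCAM+ cells, 2166 in Sca-1+ cells and 8346 in marker-negative cells, 3.85-fold lower in Sca-1+ cells than in marker-negative cells. Slc2a3, a high-affinity glucose transporter, had 196.3 in ALCAM+ cells, 491.8 in Sca-1+ cells and 553.3 in marker-negative cells, 2.82-fold lower in ALCAM+ cells than in marker-negative cells. The transporter genes thus differed in the population with the low signal. Gapdh, the glycolytic dehydrogenase, was read from its control probe set at the 3' end, with 15003 in ALCAM+ cells, 14221 in Sca-1+ cells and 19246 in marker-negative cells.

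Branches off glycolysis showed single genes apart. Among 9 other glycolytic genes 1 was higher and 1 lower in ALCAM+ cells than in marker-negative cells (6.68% and 10.6% of all genes). In Sca-1+ against marker-negative cells 1 was higher and 2 lower (15.0% and 12.7% of all). Hk3, another hexokinase gene, was 2.51-fold higher in ALCAM+ cells than in marker-negative cells, at 297.2 against 118.2. Tigar, which opposes Pfkfb3 by breaking down the same activator, was 2.33-fold higher in Sca-1+ cells than in marker-negative cells, at 260.4 against 111.8. Of 7 pentose phosphate pathway genes, beside the same shares of all, 0 were higher and 2 lower in ALCAM+ cells than in marker-negative cells, among them H6pd (2.42-fold). In Sca-1+ against marker-negative cells 0 were higher and 1 lower (Rpia, 2.24-fold). Of 4 gluconeogenesis genes measured, Fbp1, fructose bisphosphatase, was 6.76-fold lower in ALCAM+ cells than in marker-negative cells, at 101.3 against 685.1, and at least 9.09-fold lower in Sca-1+ cells. Pck2, the mitochondrial carboxykinase, was 4.41-fold higher in ALCAM+ cells than in Sca-1+ cells, at 3930 against 890.5.

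Of 21 genes of pyruvate entry and the TCA cycle, 0 were 2-fold apart between ALCAM+ and marker-negative cells (6.68% of all genes were higher and 10.6% lower), and 1 was higher and 2 lower in Sca-1+ cells than in marker-negative cells (15.0% and 12.7% of all), with a median of -0.07 in both comparisons. In ALCAM+ against Sca-1+ cells 1 was higher (Mpc1, 2.04-fold) and 1 lower (Pdp1, 2.54-fold), against 11.2% and 15.8% of all. Pdp1 was also the gene that was higher in Sca-1+ cells than in marker-negative cells. It encodes the phosphatase that undoes the work of the Pdk kinases. Pdp1 had 221.5 in ALCAM+ cells, 562.9 in Sca-1+ cells and 156.2 in marker-negative cells, 3.60-fold higher in Sca-1+ cells than in marker-negative cells. Of 14 respiratory chain genes, beside the same shares of all, 0 were apart between ALCAM+ and marker-negative cells. In Sca-1+ against marker-negative cells 0 were higher and 1 lower (Cycs, cytochrome c, 2.29-fold), and in ALCAM+ against Sca-1+ cells 0 were higher and 1 lower. Pdk1, which acts against Pdp1, had its lowest signal in the population where Pdp1 had its highest. That contrast did not extend to the related genes. Pdp2, the other phosphatase gene of the list, had 233.7 in ALCAM+ cells, 148.6 in Sca-1+ cells and 310.2 in marker-negative cells. It was 2.09-fold lower in Sca-1+ cells than in marker-negative cells. Pdk2 had a higher signal in Sca-1+ cells (128.9) than in marker-negative cells (64.7).

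Among 13 other HIF pathway regulators 0 were higher and 1 lower in ALCAM+ cells than in marker-negative cells (6.68% and 10.6% of all genes). In Sca-1+ against marker-negative cells 2 were higher and 1 lower (15.0% and 12.7% of all). Arnt2, a tissue-restricted relative of Arnt, had 90.4 in ALCAM+ cells, 550.5 in Sca-1+ cells and 223.3 in marker-negative cells, 6.09-fold lower in ALCAM+ cells than in Sca-1+ cells. Egln2, the remaining prolyl hydroxylase gene, had 1670 in ALCAM+ cells, 3229 in Sca-1+ cells and 1396 in marker-negative cells, 2.31-fold higher in Sca-1+ cells than in marker-negative cells. Each of the 3 prolyl hydroxylase genes thus had its highest signal in Sca-1+ cells, although Egln1 did not reach 2-fold. So had 38.7% of all measured genes, and 58.5% or 59.8% under the poly-A or hybridization control scaling.

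Other hypoxia target genes lay on both sides too. Of 29 measured, 3 were higher and 4 lower in ALCAM+ cells than in marker-negative cells (6.68% and 10.6% of all genes). In Sca-1+ against marker-negative cells 5 were higher and 8 lower (15.0% and 12.7% of all). In ALCAM+ against Sca-1+ cells 8 were higher and 3 lower (11.2% and 15.8% of all). Vegfa, the vascular growth factor, had 4497 in ALCAM+ cells, 903.5 in Sca-1+ cells and 2761 in marker-negative cells, 4.98-fold higher in ALCAM+ cells than in Sca-1+ cells. Lox, which cross-links collagen, had 24173 in ALCAM+ cells, 8081 in Sca-1+ cells and 3362 in marker-negative cells, 7.19-fold higher in ALCAM+ cells than in marker-negative cells. Both were highest in ALCAM+ cells, as Epas1 was. Adm, the vasodilator adrenomedullin, was highest in Sca-1+ cells, at 4479 against 309.7 in marker-negative cells (14.5-fold higher). Car12, a membrane carbonic anhydrase gene, was highest in marker-negative cells and 33.7-fold lower in Sca-1+ cells, at 277.5 against 9357. Tfrc, the transferrin receptor gene, which red cell precursors also express strongly, was 15.6-fold lower in Sca-1+ cells than in marker-negative cells, at 372.7 against 5818.

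**Figure D4:**
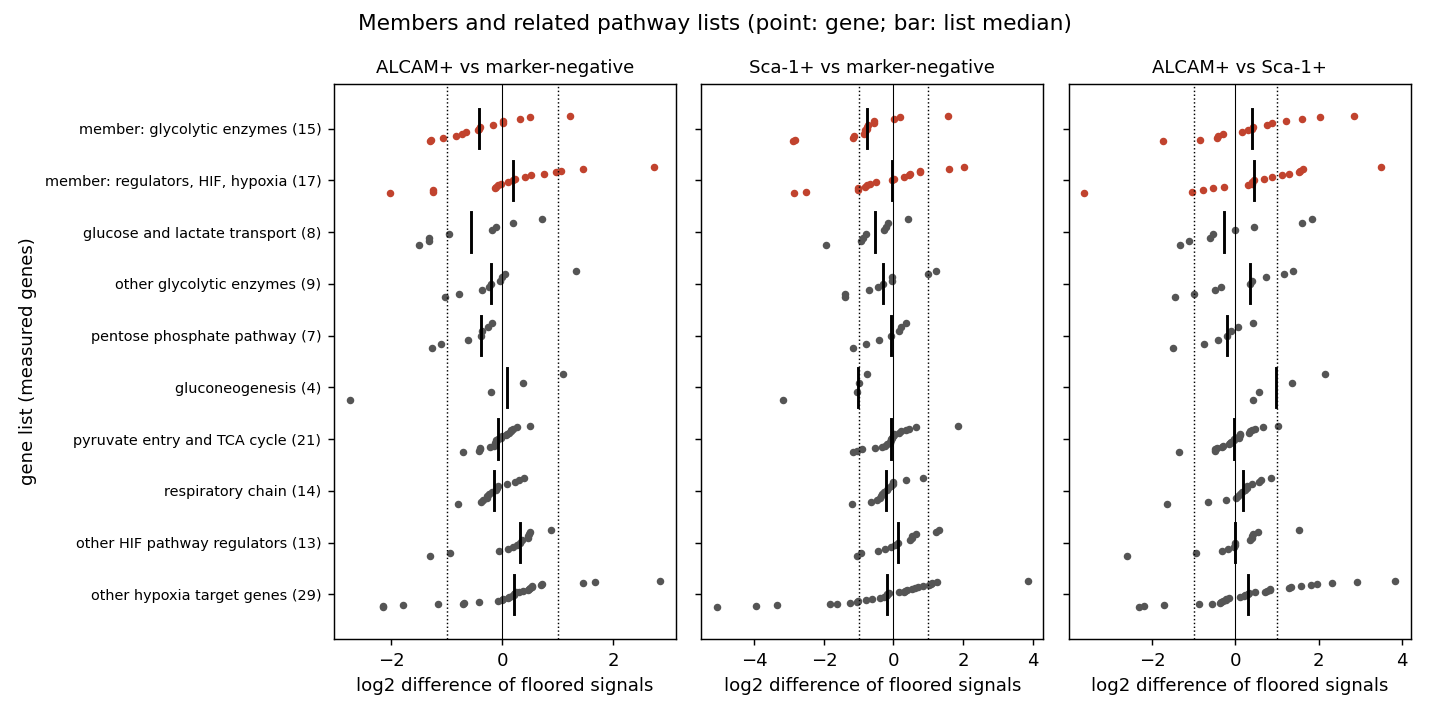
Log2 difference of each measured gene (point) in the 3 comparisons, with the 32 genes described here in red in 2 rows, the 8 related lists in grey and the median of each as a bar. For ALCAM+ against marker-negative cells the TCA cycle and respiratory chain rows stay within 2-fold, and the rows of regulators and of other hypoxia targets reach beyond 2-fold on both sides.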

How the data were processed

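Each array gave 45101 deposited signal intensities, 1 per probe set and not log-transformed. The authors used MAS5, according to the submitters' processing notes, in a version not given in the sources used here. Per the labels' protocols, TRIzol RNA was amplified and biotin-labelled by a 2-cycle assay, which favours the 3' ends of transcripts. The trimmed mean (2% off each end) was 500 on each array, so no further scaling was applied. The 64 control probe sets entered no count of genes.

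Groups came from the sample titles. Of 45037 other probe sets, 34945 carried 1 symbol in the array annotation (checked against RefSeq, GRCm38.p6, with 0 symbols changed), 932 several, and the annotation did not list 9160, which stay unnamed. A gene above the floor (75.4) on at least 1 array counted as measured. "At least" marks a fold computed against the floor because the dimmer signal did not exceed it. Genes at least 2-fold apart are given in full, and up to 3 genes per related list and comparison with the largest differences are eligible for naming. The genes and lists were chosen with earlier results of these data known. With 1 array per population no test was possible, and the number of arrays limits the precision. Calculations used Python 3.11.15, numpy 2.4.6 and pandas 2.3.3, and the procedure was tested on simulated data.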

Additional observations from a re-analysis of the deposited data

How the results depend on the processing

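No paired analysis was possible because each population was measured on 1 array. The counts and medians over the 32 genes moved little (counts within 1.5 times, medians by less than the SD between probe sets) with either other floor, with quantile normalization and without probe sets marked _x_at. They moved under scaling on spiked controls, as did all genes, whose shares at 2-fold under these scalings are not given here. With the poly-A controls, ALCAM+ against marker-negative cells gave 1 gene higher and 12 lower (median -0.64), Sca-1+ against marker-negative cells 5 and 4, and ALCAM+ against Sca-1+ cells 3 and 10 (median -0.47). Then 3 genes were highest in ALCAM+ (5.60% of all genes), 18 highest in marker-negative (35.9%) and 9 lowest in Sca-1+ cells (13.8%). With the hybridization controls, 1 gene was higher in ALCAM+ cells than in marker-negative cells, 5 were higher and 4 lower in Sca-1+ cells than in marker-negative cells, and 3 were higher and 10 lower in ALCAM+ cells than in Sca-1+ cells (median -0.38). Then 4 genes were highest in ALCAM+ (7.22% of all genes), 17 highest in marker-negative (33.0%) and 11 lowest in Sca-1+ cells (15.0%). With all probe sets of a gene averaged, 2 genes were lower in ALCAM+ cells than in marker-negative cells and 5 were highest in Sca-1+ cells. Of the 10, 11 and 13 genes at least 2-fold apart in the 3 comparisons, 1, 6 and 4 stayed so under every alternative that gave a value, and 0 changed sign. The counts of highest and lowest signals were recomputed as an addition chosen after seeing the data. The spread between sorts and mice was not measured.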
